A study of Mus musculus with 5 samples.

Results

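Siglecs are cell-surface lectins of the immunoglobulin superfamily that bind sialic acid, the sugar that caps many glycans of cell surfaces. The set described here is the 7 Siglec genes Siglech, Cd33, Siglece, Siglecf, Siglec1, Cd22 and Siglecg, chosen by their gene symbols as sialic-acid-binding lectins of microglia and myeloid cells. All 7 were found among the 56748 genes of the count table, and all 7 passed the low-count filter, which kept 17724 genes.

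Bulk RNA-seq covered CD11b-positive cells of the brain without cerebellum of 5 mice aged 7 months, with 1 library per mouse. CD11b, an integrin subunit, marks microglia and other myeloid cells. In 2 of the mice (replicates 1 and 3) the genotype was 5xFAD, a transgenic line used as a model of Alzheimer's disease that develops amyloid plaques. The other 3 (replicates 1, 2 and 3) were 5xFAD/Cd5l tg/wt, named Cd5l-transgenic below, in which the human PDGF-B promoter also drives a transgene for mouse CD5L. The 5xFAD transgenes are therefore common to both groups, and the wild-type mice that the study's design mentions were not analysed here. The comparison asked how forced CD5L expression went with the levels of these receptors in the myeloid cells of an amyloid model. Titles name separate mice and CD11b-positive cells, whereas the sample descriptions and the design text speak of brain tissue. Strain, sex and the method of cell isolation were not given in the sources used here.

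Most Siglecs are inhibitory. Their cytoplasmic tails carry tyrosine-based inhibitory motifs (ITIMs), which, once phosphorylated by Src-family kinases, recruit the phosphatases SHP-1 (Ptpn6) and SHP-2 (Ptpn11) and damp activating receptors. Siglec-H is an exception, since it has no such motif and signals through the adaptor DAP12 (Tyrobp), which also serves TREM2. CD33 is known in this field because variants at the human CD33 gene go with Alzheimer risk, and human CD33 restrains amyloid uptake by microglia.

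The coding sequences divide the 7 genes by such a motif, though not with Siglech as the only exception. Cd33 and Siglec1 also lacked it in their principal transcripts. The stretches that encode the motifs are printed because they separate the members in this way. The principal GENCODE M21 transcript of each gene was translated, and the tail after the most hydrophobic 19-residue window was searched for a tyrosine with isoleucine, leucine, valine or serine 2 residues before it and isoleucine, leucine or valine 3 residues after it. Siglech (tail of 25 residues) and Siglec1 (37 residues) had no match, and the Siglech tail held no tyrosine at all. The Cd33 tail of 66 residues held 1 tyrosine and no match, and its longest annotated form (403 residues, tail of 135) had none either. Of the other annotated forms, a Cd33 form of 239 residues had 1 match, as did Siglec1 forms of 346 and 1605 residues. A Siglecf form of 523 residues, a Siglece form of 220 residues and a Cd22 form of 147 residues had none. A Cd22 form of 663 residues had 3. The best windows of these Cd33, Siglec1, Siglece and Cd22 forms were less hydrophobic than those of the principal forms. In the Siglec1 forms the mean hydropathy was 1.13 and 1.79 against 2.65, and 285 and 1153 residues followed the window. Such a window need not span the membrane, so these matches are not shown to lie in a cytoplasmic tail. The division described here is therefore that of the principal transcripts. Siglece had 1 match, Siglecf 2, Siglecg 3 and Cd22 4, in tails of 95, 104, 124 and 141 residues. In the principal forms a lysine lay in the hydrophobic window of Siglech, Cd33 and Siglecf and in none of the other 4. In the lines below each run is the 18 coding bases of a match, 5′ to 3′ on the coding strand, with the tyrosine codon in capitals.
Siglece: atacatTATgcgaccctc
Siglecf, motif 1: ctccacTATgcctccctc
Siglecf, motif 2: tctgtaTACacagagatc
Siglecg, motif 1: ctggacTACatcaatgtg
Siglecg, motif 2: ctccacTATgctgctctc
Siglecg, motif 3: tctgatTACacagaggtc
Cd22, motif 1: gttagtTATgccatcttg
Cd22, motif 2: gtcactTACtcggtgata
Cd22, motif 3: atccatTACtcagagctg
Cd22, motif 4: gtagacTATgtgaccctc

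All of these stretches lie on chromosome 7 and, in the GRCm38 build that this annotation uses, within single coding exons. The Siglece stretch is in exon 7 of 7 (43651585 to 43651602, minus strand). The Siglecf stretches are in exon 10 of 10 (43358670 to 43358687 and 43358739 to 43358756, plus strand). Those of Siglecg are in exons 11 and 12 of 12 (43412688 to 43412705, 43417979 to 43417996 and 43418048 to 43418065, plus strand). Those of Cd22 are in exons 12, 13 and 14 of 14 (30867494 to 30867511, 30867033 to 30867050, 30866600 to 30866617 and 30866540 to 30866557, minus strand). A match is a feature of the letters and does not show phosphorylation in these cells.

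Of the 7 genes, 6 lie on chromosome 7 and Siglec1 on chromosome 2. In the coordinates of the deposited table (GRCm39), Siglecf (43000765 to 43008955), Siglecg (43057628 to 43067782), Cd33 (43173640 to 43193852) and Siglece (43300494 to 43309585) form a cluster. Cd22 (30564827 to 30579767) and Siglech (55417926 to 55428673) lie on either side of it, and Siglec1 spans 130911140 to 130928685 on its own chromosome. Reads of paralogs in the cluster may have been shared out by the counting step, whose settings were not given in the sources used here.

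The libraries held 30798377 to 34794617 counts. Cd5l stood at 1.52 and 0.254 CPM (counts scaled to the library size) in 5xFAD replicates 1 and 3 and between 194.8 and 334.9 CPM in the Cd5l-transgenic mice, so Cd5l was high in the libraries labelled transgenic and low in the others. The 15 microglial identity genes summed to 29370 to 31410 CPM, with overlapping groups. Markers of other cells were uneven: oligodendrocyte markers summed to 4461 CPM in Cd5l-transgenic replicate 2 and 341.3 to 1117 CPM elsewhere, and choroid plexus and ependymal markers to 2856 CPM in 5xFAD replicate 3 and 268.3 to 545.5 CPM elsewhere. In bulk RNA, fewer cells of a type and less RNA per cell cannot be told apart.

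Per gene length, the 7 receptors spanned a wide range of levels with Siglech and Cd33 at the top. Over all 5 libraries Siglech averaged 253 ± 31.5 CPM per kilobase of gene length (SD, n = 5) and Cd33 76.6 ± 11.8. Siglecf followed at 30.5 ± 3.31 CPM per kilobase, then Cd22 at 14.7 ± 3.65, Siglece at 14.4 ± 2.07, Siglec1 at 5.22 ± 0.967 and Siglecg at 0.534 ± 0.172. Every pair of neighbours in this order was separated by more than its spread except Cd22 and Siglece, which did not differ beyond theirs. The Cd33 value depends on the length used. The table gives 7771 bases for Cd33, whereas its coding transcripts in GENCODE M21 run from 933 to 5728 bases. Taken per principal transcript (1791 bases for Cd33 and 2138 for Siglech), Cd33 averaged 332.5 and Siglech 401 CPM per kilobase. That gap was far smaller than per gene length, although the order of all 7 means was the same. On that length the library values of Siglech and Cd33 overlapped, so the separation per gene length did not hold for them.

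**Figure D1:**
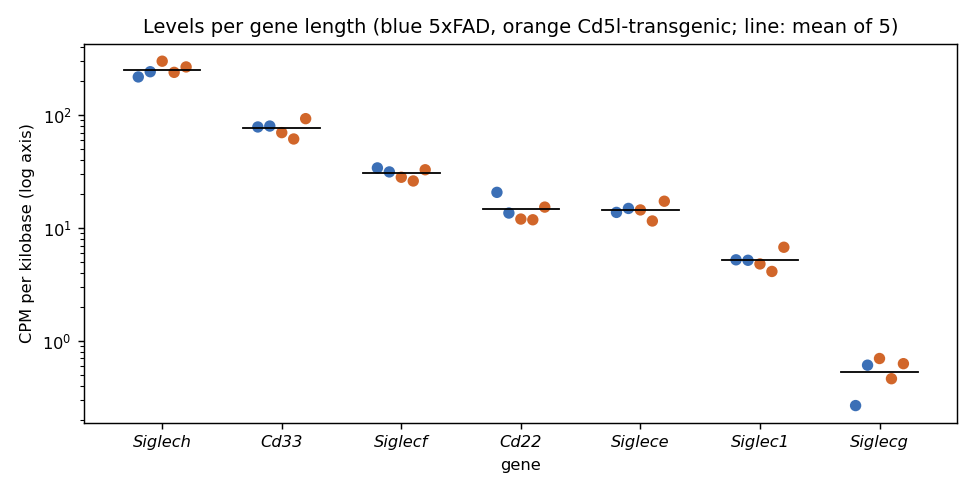
Level of each Siglec gene in CPM per kilobase of the gene length in the deposited table, on a log axis, with 1 point per library (2 of 5xFAD, 3 Cd5l-transgenic) and a line at the mean of 5. Siglech averages 253 and Siglecg 0.534, and only the points of Cd22 and Siglece overlap those of their neighbour in the order.

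None of the 7 genes differed between the genotypes by the edgeR quasi-likelihood test. With Benjamini-Hochberg adjustment over all 17724 genes, 0 of 7 were called higher and 0 of 7 lower, against 0% of all genes (0 called). At an unadjusted p under 0.05 there were 0 of 7, against 2.63% of all genes (466). DESeq2 called 0 of 7, against 0.0587% of all genes with an adjusted p (10 of 17036). For none of the 7 did all Cd5l-transgenic libraries lie on one side of both 5xFAD libraries, whereas 15.9% of all tested genes had such groups. Of the members 4 lay above 0 and 3 below, and their median log2 fold change was 0.0076, beside -0.027 for all tested genes. Cd5l itself was not called by edgeR (log2 fold change 8.23, adjusted p = 0.448) but was called by DESeq2 (adjusted p = 6.74e-19). The counts of 0 do not show that the receptors were unchanged. What the data allow is the 95% interval of each difference, given gene by gene below.

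**Figure D2:**
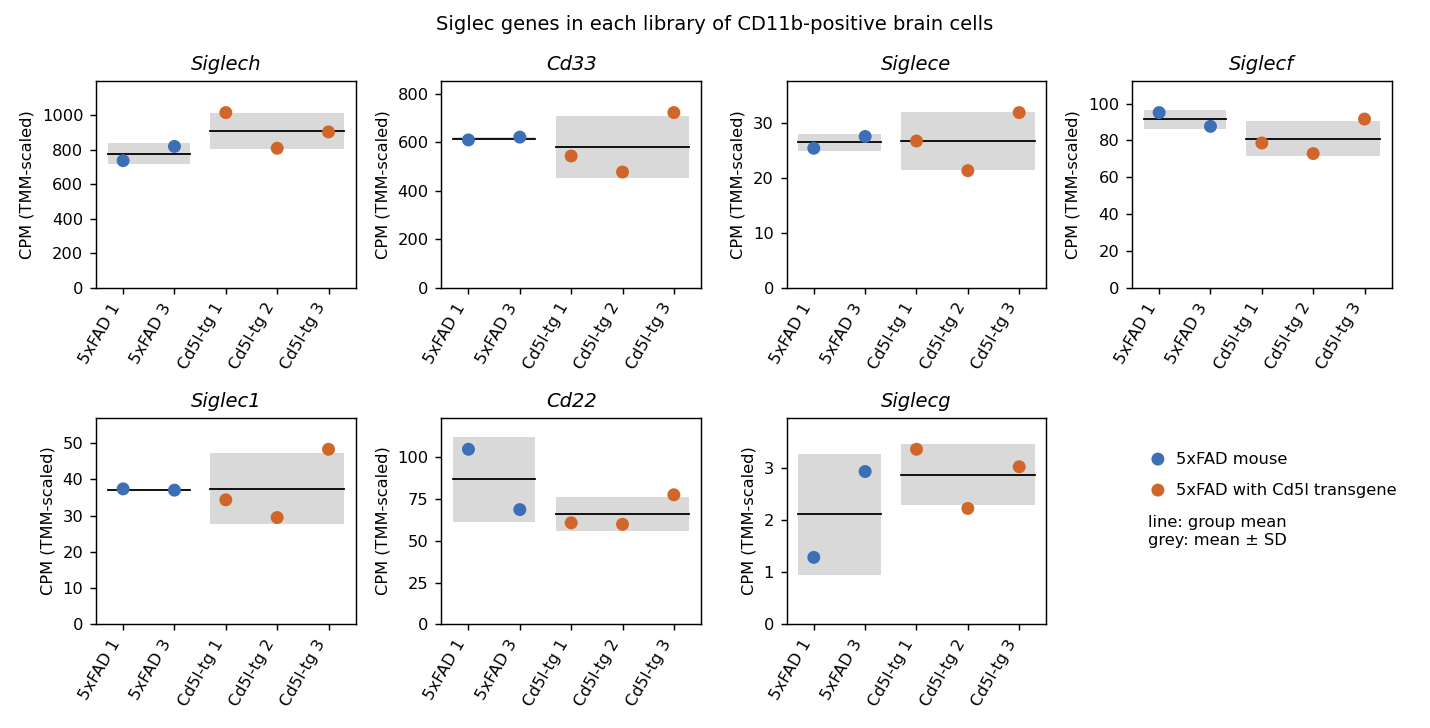
CPM (TMM-scaled) of the 7 Siglec genes in each of the 5 libraries, with each axis from 0, a line at the group mean and a grey band of ± 1 SD. The 2 groups overlap in every panel, and Cd5l-transgenic replicate 2 is the lowest library for Cd33, Siglece, Siglecf, Siglec1 and Cd22.

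Siglech, which encodes the DAP12-coupled receptor and serves as a marker that separates microglia from most other brain macrophages, had the highest mean level of the members. Its CPM were 737 and 819.8 in 5xFAD replicates 1 and 3 and 1016, 809 and 904 in Cd5l-transgenic replicates 1, 2 and 3. Only Cd5l-transgenic replicate 2 fell within the 5xFAD range, and the other 2 transgenic mice lay above it. The means were 778 ± 58.5 CPM (SD, n = 2) and 909.6 ± 104 CPM (SD, n = 3), and the edgeR log2 fold change was 0.22 (SE 0.13, 95% interval -0.084 to 0.533, adjusted p = 0.995). Without each mouse in turn the value ran from 0.14 (without Cd5l-transgenic replicate 1) to 0.32 (without Cd5l-transgenic replicate 2), so its size rested on single mice while its sign did not change. Relative to Csf1r, the microglial growth factor receptor gene, Siglech stood at 0.123 and 0.132 in 5xFAD and at 0.147, 0.125 and 0.135 in the transgenic libraries, again with overlap. Csf1r itself had groups apart, at 5998 and 6231 CPM in 5xFAD against 6928, 6495 and 6699 CPM with the transgene. Its log2 fold change was 0.13 (SE 0.11, edgeR adjusted p = 0.995), and 7.2% of all genes had groups apart in that direction. The ratio to Csf1r is therefore not a neutral scaling.

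Cd33, the mouse counterpart of the Alzheimer risk gene, had nearly equal values in the 5xFAD mice and widely spread ones with the transgene. Its CPM were 610.4 and 622 in 5xFAD and 544, 478 and 723 in Cd5l-transgenic replicates 1, 2 and 3. Thus 2 transgenic mice lay below both 5xFAD mice and the third above both. The SD was 8.13 CPM (n = 2) around a mean of 616 CPM in the 5xFAD mice and 127 CPM (n = 3) around 582 CPM in the Cd5l-transgenic mice. The log2 fold change was -0.083 (SE 0.18, 95% interval -0.529 to 0.363, edgeR adjusted p = 0.995), and it was -0.25 without Cd5l-transgenic replicate 3 and 0.053 without Cd5l-transgenic replicate 2.

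The inhibitory receptor genes of the same cluster were less abundant. Siglecf, known from eosinophils and alveolar macrophages, stood at 95.1 and 87.6 CPM in the 5xFAD mice and at 78.6, 72.9 and 91.6 CPM in Cd5l-transgenic replicates 1, 2 and 3. Transgenic replicates 1 and 2 lay below both 5xFAD mice, and replicate 3 lay between them. Its log2 fold change was -0.17 (SE 0.11, 95% interval -0.452 to 0.106, edgeR adjusted p = 0.995), with the same sign without any 1 mouse (-0.25 to -0.089).

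Siglece, an inhibitory receptor of neutrophils, monocytes and microglia, had 25.4 and 27.6 CPM in the 5xFAD mice and 26.8, 21.4 and 31.95 CPM in the Cd5l-transgenic mice. The transgenic values lay on both sides of the 5xFAD values, and the log2 fold change was 0.0089 (SE 0.17, 95% interval -0.419 to 0.436, edgeR adjusted p = 0.999). Without Cd5l-transgenic replicate 3 it was -0.12 and without replicate 2 it was 0.16.

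Siglecg, the regulator of B-1 cells whose ligands include CD24, was barely present, at 38 and 104 counts in 5xFAD and 104, 71 and 100 counts with the transgene. In CPM these were 1.29 and 2.93 against 3.36, 2.23 and 3.03. The difference of 0.41 rested on 1 library, 5xFAD replicate 1 (log2 fold change, SE 0.40, 95% interval -0.580 to 1.397, edgeR adjusted p = 0.995), and was -0.030 without it and 1.15 without 5xFAD replicate 3. At 38 counts, counting error alone is 16.2% of the value.

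Cd22, best known as the inhibitory co-receptor of B cells and also expressed by aged microglia, where blocking it restores phagocytosis, had the largest downward estimate of the members. Its CPM were 104 and 68.5 in 5xFAD and 60.6, 59.7 and 77.3 in Cd5l-transgenic replicates 1, 2 and 3. It was highest in 5xFAD replicate 1, while the other 4 libraries lay close together and overlapped. The log2 fold change was -0.39 (SE 0.21, 95% interval -0.924 to 0.142, edgeR adjusted p = 0.995), and it was -0.054 without 5xFAD replicate 1 and -0.67 without 5xFAD replicate 3. The same library held the most RNA of 14 plaque-associated microglia genes, with a sum of 40900 CPM against 26650 to 29980 CPM in the other 4. Of its sum, the protease genes Ctsd and Ctsb made up 16128 and 9472 CPM. The list had 1 gene above and 13 below 0 (median -0.28), with none called. Itgax alone had groups apart, at 1503 and 834 CPM in 5xFAD against 777, 750 and 736 CPM (log2 fold change -0.63, SE 0.24, edgeR adjusted p = 0.995). Among all genes, 8.69% had groups apart in that direction. The part of plaque-associated RNA in the Cd22 value was not tested.

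Siglec1, sialoadhesin, is an interferon-inducible receptor of border-associated and other tissue macrophages that binds sialic acid without inhibitory motifs. It stood at 37.4 and 37.0 CPM in the 5xFAD mice and at 34.4, 29.5 and 48.3 CPM in the Cd5l-transgenic mice, so that the transgenic libraries straddled a nearly constant 5xFAD level. The log2 fold change was 0.0076 (SE 0.21, 95% interval -0.525 to 0.540, edgeR adjusted p = 0.999), -0.20 without Cd5l-transgenic replicate 3 and 0.17 without Cd5l-transgenic replicate 2. Of 18 interferon-response genes, 18 had values above 0 (median 0.24, 0 called by edgeR), and for 9 of them every transgenic library exceeded both 5xFAD libraries, beside 7.2% of all genes with groups apart in that direction. Mx1, an antiviral GTPase of that list, stood at 30.1 and 33.4 CPM in the 5xFAD mice and at 37.4, 37.3 and 38.8 CPM in the Cd5l-transgenic mice. Siglec1 did not share that arrangement, being lower than in both 5xFAD libraries in 2 of the 3 transgenic ones.

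**Figure D3:**
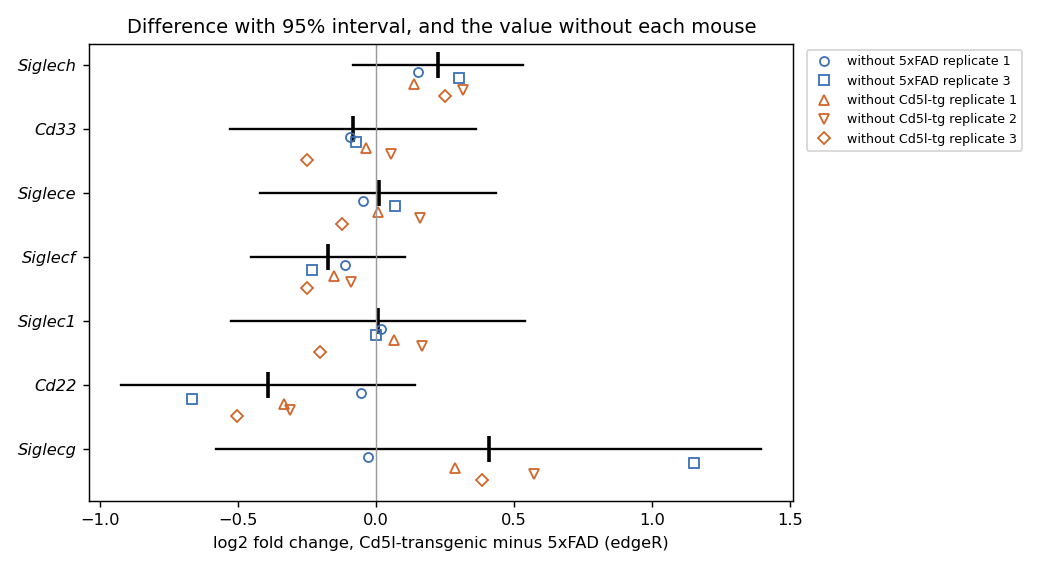
edgeR log2 fold change (Cd5l-transgenic minus 5xFAD) of each Siglec gene as a vertical tick with its 95% interval, and below it the value obtained without each mouse (open symbols, blue for a 5xFAD mouse left out, orange for a Cd5l-transgenic one). All 7 intervals include 0, and Cd22 and Siglecg move with the 5xFAD mouse left out, to -0.054 and -0.030 without replicate 1 and to -0.67 and 1.15 without replicate 3.

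Across mice the 7 genes fell into different patterns, which the centred levels show. Cd33, Siglece and Siglec1 went together: each was lowest in Cd5l-transgenic replicate 2 (centred log2 CPM of -0.30, -0.305 and -0.32) and highest in replicate 3 of the same group (0.29, 0.27 and 0.39). Over the 5 libraries Pearson's r was 0.98 between Cd33 and Siglec1, 0.92 between Cd33 and Siglece and 0.87 between Cd33 and Siglecf. Siglecf also followed Cd22 (r = 0.87). Siglech was close to none of these (r = 0.02 with Cd33 and -0.61 with Cd22) and ran with Siglecg (r = 0.84), whose counts were few. These coefficients describe 5 libraries that share depth and cell makeup within each library, and no test was made of them.

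The ratio of Siglech to Cd33 puts the divergence in a number that does not depend on library scaling. It was 1.21 and 1.32 in 5xFAD replicates 1 and 3, 1.87 and 1.69 in Cd5l-transgenic replicates 1 and 2, and 1.25 in Cd5l-transgenic replicate 3. The first 2 transgenic mice stood above both 5xFAD mice and the third between them. Siglech made up 45.8% and 49.2% of the summed CPM of the 7 genes in 5xFAD and 57.6%, 54.95% and 48.1% with the transgene. The sum itself was 1611 and 1665 CPM in the 5xFAD mice and 1764, 1472 and 1879 CPM in the Cd5l-transgenic mice, on both sides of the 5xFAD values.

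**Figure D4:**
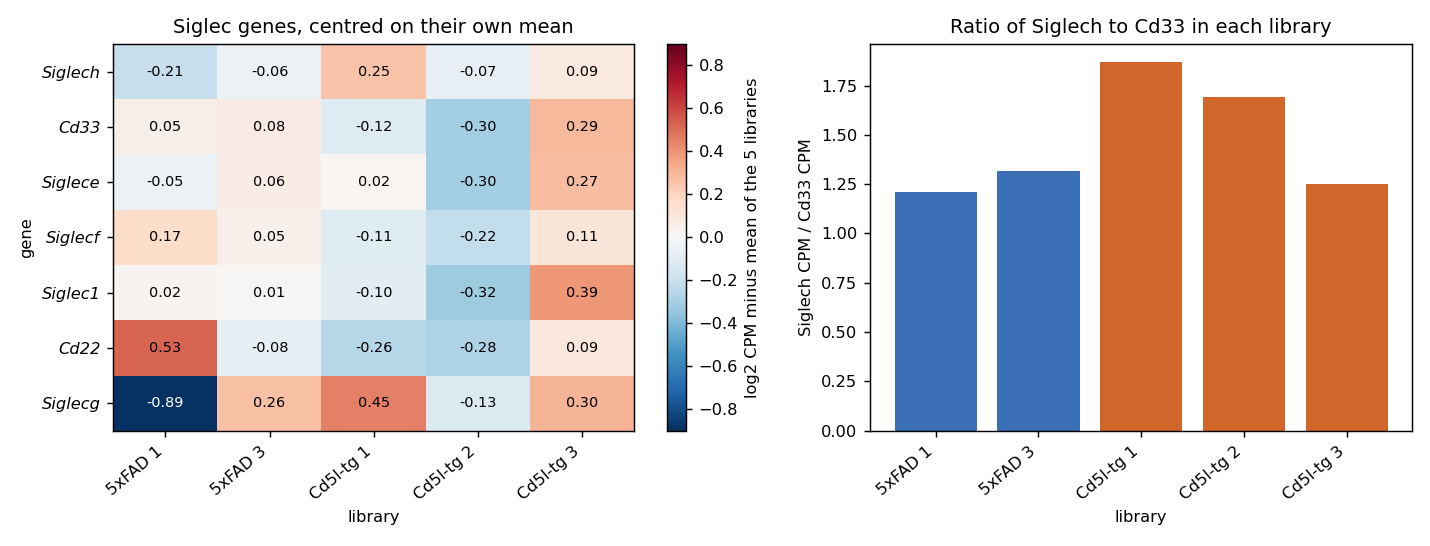
Left, log2 CPM of each Siglec gene minus its own mean over the 5 libraries (red above, blue below). Right, Siglech CPM divided by Cd33 CPM in each library, with bars from 0. Cd33, Siglece and Siglec1 are lowest in Cd5l-transgenic replicate 2 and highest in replicate 3, and the ratio is 1.87 and 1.69 in Cd5l-transgenic replicates 1 and 2 against 1.21 to 1.32 in the other 3 libraries.

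Among 10439 genes of at least 5 CPM, those whose log2 CPM followed Siglech most closely over the 5 libraries were Magt1 (Pearson's r 0.993), the microglial marker Tmem119 (0.989) and the scavenger receptor gene Stab1 (0.983). For Cd33 they were Dph2, Exoc5 and Cbr2 (0.998 to 0.999), and for Siglec1 Comp, Crebrf and Trim30d (0.998 for each). Fam91a1, Zmym2 and Mier1 were closest to Siglece, Sft2d1, Sowahc and Alyref to Siglecf, Nop56, Lmo2 and Sipa1l2 to Cd22, and Ssr3, C2cd3 and Eef2k to Siglecg. These are the highest of 10439 coefficients over 5 points each and serve as a description only.

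The promoters of Cd33 and Siglecf are printed because they share a block of sequence. Promoter windows of 300 bases (250 before and 50 after the gene start, RefSeq, GRCm38.p6) were found for 6 of the 7 members, all but Siglec1. The longest run shared by Cd33 and Siglecf was 16 bases, where the other 14 pairs of members shared runs of 7 to 10. Capitals mark the 3 runs of at least 8 bases that occur in the same order in both windows, in sequences written 5′ to 3′ on the strand of the gene.
Cd33, chr7:43533246-43533334, minus strand: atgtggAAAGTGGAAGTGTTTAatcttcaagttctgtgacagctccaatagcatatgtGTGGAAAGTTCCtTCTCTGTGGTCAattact
Siglecf, chr7:43351308-43351390, plus strand: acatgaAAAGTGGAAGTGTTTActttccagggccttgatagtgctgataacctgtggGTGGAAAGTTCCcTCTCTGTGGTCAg

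The spacing was alike, with 36 bases between the first 2 runs in Cd33 and 35 in Siglecf. The block lay at different distances from the annotated start, beginning 157 bases before that of Cd33 and 27 bases before that of Siglecf, where it runs 49 bases past the start. Of 32851 promoter windows, 2 held the 16-base run on either strand and 2 the run GTGGAAAGTTCC, in each case those of Cd33 and Siglecf, and 9 held the last run. The first run contains GGAAGT, a core of ETS-family factors that occurs on either strand in 23.8% of all windows and in those of Cd33, Siglecf and Siglech. The last run contains TGTGGT, a core of RUNX factors, present on either strand in 16.8% of all windows and in those of the same 3 genes. GAGGAAGT, a longer PU.1-type site that contains the ETS core, and the interferon-response element (GAAA, any 2 bases, GAAA) were in 3.2% and 3.44% of windows. Neither was in a window of the 6 members that had one, and Siglec1 could not be searched. These matches describe the letters of the windows, and binding was not measured.

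Siglec receptors act through adaptors, kinases and phosphatases, and genes for this machinery were detected in every library. All 15 genes of that list were tested and none passed in edgeR, with 7 above and 8 below 0 and a median log2 fold change of -0.0175. Tyrobp, which encodes DAP12, the partner of Siglec-H and TREM2, had 1692 and 1165 CPM in the 5xFAD mice and 1349, 1374 and 1254 CPM in the Cd5l-transgenic mice. Ptpn6, the phosphatase SHP-1, had 454 and 392 CPM against 414, 364 and 397 CPM. Neither gene separated the groups, with log2 fold changes of -0.11 each (SE 0.17 for Tyrobp and 0.11 for Ptpn6, edgeR adjusted p = 0.995 each). Socs3, a suppressor of cytokine signalling that also binds phosphorylated Siglec tails, was the single gene of the list with groups apart, at 395 and 389 CPM in the 5xFAD mice and 315, 230.1 and 364 CPM in the Cd5l-transgenic mice (log2 fold change -0.37, SE 0.19, edgeR adjusted p = 0.995). Among all genes, 8.69% had groups apart in that direction.

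The 9 listed partners of the CD33 and TREM2 pathway had 3 genes above and 6 below 0, a median of -0.054, and none passed. Trem2, the lipid-sensing receptor that opposes CD33, stood at 2406 and 1598 CPM in the 5xFAD mice and at 1719, 1796 and 1672 CPM in the Cd5l-transgenic mice (log2 fold change -0.21, SE 0.18, edgeR adjusted p = 0.995). The high value was that of 5xFAD replicate 1. Apoe, the lipid carrier and TREM2 ligand, was also highest in that library, with 22638 and 11163 CPM against 15456, 15172 and 11015 CPM. Ms4a4a, a membrane protein gene of macrophages, had 5.39 and 5.19 CPM against 8.79, 4.36 and 7.56 CPM.

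On the side of the ligands, the enzymes that make and attach sialic acid showed small differences. Of 9 genes of synthesis and activation 8 were tested, with 3 above and 5 below 0 and a median of -0.055. Casd1, the sialic acid O-acetyltransferase, was the most abundant of them by CPM (84.7 and 99.0 in 5xFAD, 90.2, 82.2 and 90.7 with the transgene). By CPM, Nans, the sialic acid synthase, had 31.2 and 28.7 CPM against 29.4, 26.4 and 27.8 CPM. Of 20 sialyltransferases 15 were tested, with 10 above and 5 below 0, a median of 0.020 and none called. The alpha-2,3-sialyltransferase gene St3gal6 had 186 and 224 CPM in the 5xFAD mice and 199.8, 199 and 227 CPM in the Cd5l-transgenic mice. St8sia4, a polysialyltransferase, had 64.2 and 62.8 CPM against 57.1, 54.0 and 56.1 CPM, lower in 3 of 3 transgenic mice, with a log2 fold change of -0.19 (SE 0.070). It was the single gene of the 15 with an unadjusted p under 0.05 (0.0363), beside 2.63% of all genes, and the single one with groups apart, beside 8.69% of all genes in that direction. Its edgeR adjusted p was 0.995. St6gal1, the alpha-2,6-sialyltransferase that makes CD22 ligands, was chosen for naming after its values were seen and stood at 181 and 164 CPM against 171, 171 and 159.9 CPM.

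Sialidases remove these ligands. Of 5 genes in the list 4 were tested, with 1 above and 3 below 0 and a median of -0.14, and none passed. Ctsa, the protective protein that stabilises the lysosomal sialidase, stood at 1960 and 1549 CPM in the 5xFAD mice and at 1564, 1648 and 1585 CPM in the Cd5l-transgenic mice. Neu3, the plasma membrane sialidase, was low at 2.91 and 3.44 CPM against 4.10, 4.11 and 4.51 CPM, higher in 3 of 3 transgenic mice (log2 fold change 0.41, SE 0.21, edgeR adjusted p = 0.995). Neu1, the lysosomal sialidase, named after its values were seen, had 93.6 and 84.4 CPM against 81.6, 81.3 and 77.8 CPM and was lower in 3 of 3 (log2 fold change -0.15, SE 0.078, edgeR adjusted p = 0.995). Groups apart in the direction of Neu3 were found for 7.2% of all genes, and in that of Neu1 for 8.69%.

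**Figure D5:**
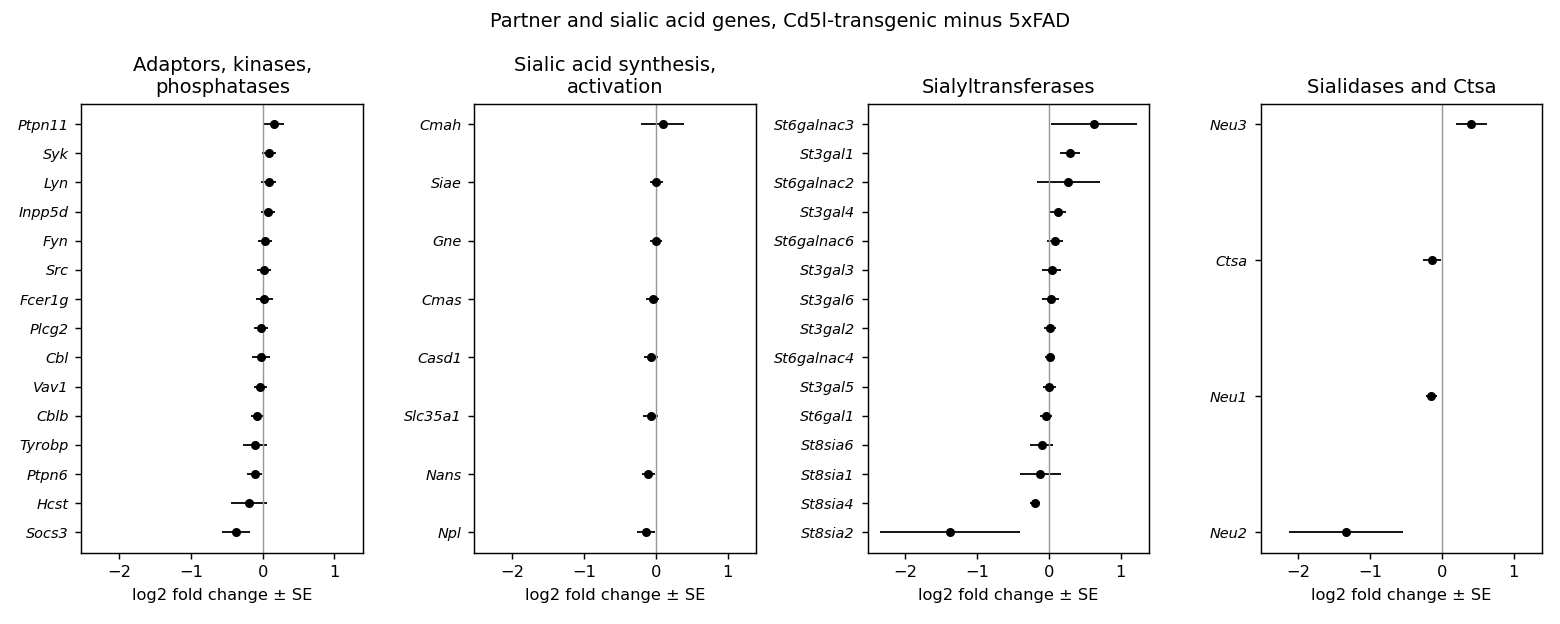
edgeR log2 fold change (Cd5l-transgenic minus 5xFAD) with its SE for the tested genes of 4 lists: adaptors, kinases and phosphatases (15 genes), sialic acid synthesis and activation (8), sialyltransferases (15), and sialidases with Ctsa (4). None passed the test, and the list medians are -0.0175, -0.055, 0.020 and -0.14.

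Sialylated proteins known as Siglec ligands gave 5 tested genes of 6, with 3 above and 2 below 0 and a median of 0.014. Selplg, the mucin-like P-selectin ligand of microglia, had 1232 and 1319 CPM in the 5xFAD mice and 1437, 1316 and 1334 CPM in the Cd5l-transgenic mice. Spn, the sialomucin CD43, had 3.32 and 3.10 CPM against 3.75, 3.86 and 5.17 CPM, higher in 3 of 3 transgenic mice (log2 fold change 0.41, SE 0.25, edgeR adjusted p = 0.995). Groups apart in that direction were found for 7.2% of all genes. Among 10 other sialic acid lectins, selectins and neural adhesion genes, 7 were tested and 7 lay above 0 (median 0.54), with none called. Mag, the Siglec of myelin, had the largest value at 1.61 (SE 0.82), with 26.5 and 25.7 CPM in the 5xFAD mice and 42.1, 168 and 29.8 CPM in the Cd5l-transgenic mice. It was highest in Cd5l-transgenic replicate 2, the library with the most oligodendrocyte marker RNA (4461 CPM), and the part of that RNA in the Mag value was not tested.

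Because several members are better known from other blood cells, the markers of those cells are given beside them. Of 12 B cell markers 5 passed the low-count filter. Ms4a1, Cd79a and Pax5, which did not pass, stayed between 0.0282 and 0.407 CPM. Ebf1, Ighd and Cd79b, which passed, had 4.81 to 15.995, 7.24 to 11.67 and 5.25 to 8.93 CPM. Cd79b was higher in every transgenic library than in both 5xFAD libraries (log2 fold change 0.39, SE 0.21, edgeR adjusted p = 0.995), beside 7.2% of all genes. Cd22 had 59.7 to 104 CPM in the same libraries. The B cell list summed to 354.9 to 401.7 CPM, nearly all of it Ighm (325 to 380.4 CPM). Of 8 eosinophil markers 6 passed, with a list sum of 2.48 to 7.67 CPM that was highest in 5xFAD replicate 3, against 72.9 to 95.1 CPM for Siglecf. The eosinophil granule genes Prg2 and Epx did not exceed 3.36 and 0.931 CPM. Ear2, the gene of that list with the smallest p, had 0.576 and 0.988 CPM in 5xFAD against 1.00, 1.35 and 2.00 CPM. Its log2 fold change was 0.87 (SE 0.46, edgeR adjusted p = 0.995), and 7.2% of all genes had groups apart in that direction. Of the 6 tested eosinophil markers, 2 lay above and 4 below 0. Markers of plasmacytoid dendritic cells, the other cell type known for Siglech, summed to 243.9 to 274.1 CPM through Tcf4, Cox6a2 and Pacsin1, while Ccr9, Ly6d, Klk1, Spib and Cd300c each stayed at or below 0.564 CPM.

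Border-associated macrophages are a known source of Siglec1 and were represented by all 10 markers tested. Their sum was 807 and 939 CPM in the 5xFAD mice and 1119, 823 and 1107 CPM in the Cd5l-transgenic mice, with 8 genes above and 2 below 0 and a median of 0.22. Mrc1, the mannose receptor gene named after its values were seen, had 107 and 127 CPM against 138, 88.8 and 179 CPM, lowest and highest in the same transgenic libraries as Siglec1. The part of border macrophage RNA in the Siglec1 value was not tested. Neutrophil markers, given because Siglece is a neutrophil receptor, had 9 of 10 genes above 0 (median 1.03) and summed to 1025 to 1157 CPM with overlapping groups, of which Csf3r made up 814 to 1074 CPM. The 7 tested monocyte markers of 8 all lay above 0 (median 0.71), and their sum of 134.5 and 138.7 CPM in 5xFAD was below the 197.9, 296 and 171.4 CPM of the transgenic libraries. Most of that sum was Fn1, the fibronectin gene, at 116 and 116 CPM in the 5xFAD mice and 156, 267 and 145 CPM in the transgenic ones. Endothelial markers, with 10 of 10 above 0 (median 0.72), were likewise lower in the 5xFAD mice (640.5 and 614.7 CPM against 681, 1275 and 724 CPM) and highest in the same library as Fn1. The part of monocyte or endothelial RNA in the values of Cd33 and Siglece was not tested.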

How the data were processed

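The analysis used the counts per Ensembl gene that the authors deposited, raw whole numbers in a table of 56748 genes. Coordinates are those of GRCm39, per the submitters' processing notes. No aligner, counter, annotation or use of strand was given in the sources used here, and antisense or overlapping reads may be mixed. Columns were matched to libraries by name, and 1 name (Cd5l-transgenic replicate 3) had its letter pairs reversed. Library totals of 30798377 to 34794617 counts put the limit set by 3 counts at 0.0847 to 0.102 CPM, for counting error only.

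Low counts were removed by filterByExpr in edgeR 4.0.16 (R 4.3.3). Libraries were scaled by TMM and tested with its quasi-likelihood test (robust, genotype only), with Benjamini-Hochberg adjustment over 17724 genes and a threshold of 0.05. Intervals are 95% on the total degrees of freedom of that test, which add its prior to the residual ones. Levels per length used the gene length in the table. CPM on the log2 scale had a prior count of 2. The test was checked on simulated counts. Alternatives were other scalings, filters and tests (DESeq2 1.42.0, limma-voom of limma 3.58.1), a replicate block, and the omission of each mouse in turn. P-values measure the spread between these mice only.

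The members and the 22 other gene lists were chosen with earlier results of these data known. In each list the genes with the smallest p and the highest mean CPM were named, with Cd5l, Tyrobp, Ptpn6 and Trem2 always. The 3 genes most like each member had the highest Pearson correlation. Results of lists used only as cell markers are given where they touch a member. St6galnac2 has more than 1 row in the table, and the row with more counts was used.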

Additional observations from a re-analysis of the deposited data

How the results depend on the processing

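No member was called under any of the 13 alternatives (12 for Siglecg, which did not reach 5 CPM in 2 samples), with adjusted p from 0.852 to 1. Siglech, Siglecf and Cd22 kept their sign under all 13. Cd33 was at 0.026 with the replicate number as a block, Siglece at -0.020 and Siglec1 at -0.020 with scaling by the microglial identity genes, and Siglec1 at -0.071 in limma-voom with sample weights. Without each mouse in turn the log2 fold changes ran from 0.14 to 0.32 for Siglech, -0.25 to 0.053 for Cd33, -0.12 to 0.16 for Siglece, -0.25 to -0.089 for Siglecf, -0.20 to 0.17 for Siglec1, -0.67 to -0.054 for Cd22 and -0.030 to 1.15 for Siglecg. Siglece was at -0.046 and Siglecg at -0.030 without 5xFAD replicate 1, and Siglec1 at -0.0010 without 5xFAD replicate 3. Where 1 mouse remained in 5xFAD, it was assumed to vary like the others. The cause of these changes was not tested. The older quasi-likelihood method and the levels per principal transcript were chosen after seeing the data. By plain CPM 5 of the 7 genes held the same place in the order of levels as per length.

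The genotypes share the replicate numbers 1 and 3, but these are different mice. Being separate mice, they were not taken as pairs. Deviations from the group mean correlated across genes at 0.129 for the mice numbered 1 and at -0.240 for those numbered 3. These coefficients cannot decide on pairing, since the deviations of 2 5xFAD mice from their mean are mirror images. With the replicate block 0 members were called, and all genes at an unadjusted p under 0.05 numbered 610 against 466. Adjusted calls over all genes were 0 in edgeR, 10 in DESeq2 and 10 without 5xFAD replicate 1, none of them a member.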
